A study of Mus musculus with 12 samples.

Results

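The CLC genes encode chloride channels and chloride/proton exchangers, and 6 of them, Clcn1, Clcn2, Clcn3, Clcn5, Clcn6 and Clcn7, were taken by gene symbol from a count table of 51826 entries, which holds 9 CLC genes in all. They were measured in atria and ventricles of female FvB mice at 10 weeks of age, by stranded RNA-Seq of poly(A)-selected RNA. CUG960 +dox mice were homozygous for TREDT960I, a transgene in which a tetracycline response element and a minimal CMV promoter drive interrupted CTG repeats within part of human DMPK. They were also hemizygous for MHCrtTA, which places the reverse tetracycline transactivator under the alpha-myosin heavy chain promoter and so limits induction to cardiomyocytes. MHCrtTA +dox controls were hemizygous for the transactivator alone, and both genotypes received doxycycline (dox) in chow from postnatal day 1 (PN1). Each of the 4 groups had 3 libraries, 1 per mouse, and atria and ventricles came from the same 6 mice: V119, V120 and V123 for CUG960 +dox, and V327, V333 and V334 for MHCrtTA +dox. Libraries held between 116127966 and 160676189 counts. The table is of whole chambers, so fewer cells that express a gene and less of its RNA per cell cannot be told apart.

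CLC proteins work as dimers in which each subunit has its own ion path. ClC-1, encoded by Clcn1, is the voltage-gated chloride channel that sets the resting conductance of skeletal muscle fibers, and its loss causes myotonia; in muscle of people with myotonic dystrophy its transcript is misspliced. ClC-2 is a plasma membrane channel opened by hyperpolarization and found in many tissues, the heart included. ClC-3, ClC-5, ClC-6 and ClC-7 sit on endosomes and lysosomes, where exchange of chloride for protons accompanies acidification by the vacuolar proton pump, so the name chloride channel covers both channels and exchangers here.

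On GRCm38 with the GENCODE M21 annotation, Clcn1 spans chr6:42286685-42315756 on the plus strand and has 10 annotated transcripts, of which 2 are protein coding and 6 are marked for nonsense-mediated decay. None of the other members had more than 2 transcripts of the last kind. Clcn2 lies at chr16:20702964-20717746, Clcn3 at chr8:60910389-60983300, Clcn5 at chrX:7153810-7319358 and Clcn6 at chr4:148004259-148038821, all on the minus strand. Clcn7 lies at chr17:25133391-25162104 on the plus strand. The values below are for whole genes and do not separate the transcripts.

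RefSeq promoters of GRCm38.p6 were matched for 6 of 6 members, with 9 transcription starts between them. The 100 bases before the start are shown for Clcn1, the member with the largest differences between groups, and for Clcn7 and Clcn6, which were chosen because a motif lies in this window. Capitals mark the MEF2 consensus in Clcn1, a motif bound by MEF2 transcription factors of muscle, and CACGTG in the others, the core of sites bound by the TFEB family of lysosomal gene regulators.
Clcn1, chr6:42286585-42286684, plus strand: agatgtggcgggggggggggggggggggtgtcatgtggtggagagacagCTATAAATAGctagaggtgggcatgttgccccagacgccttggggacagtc
Clcn7, chr17:25133291-25133390, plus strand: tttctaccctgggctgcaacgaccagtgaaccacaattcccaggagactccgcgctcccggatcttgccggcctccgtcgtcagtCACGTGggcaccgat
Clcn6, chr4:148038814-148038913, minus strand: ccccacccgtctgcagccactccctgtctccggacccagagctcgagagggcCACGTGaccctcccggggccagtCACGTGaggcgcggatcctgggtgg
The MEF2 match of Clcn1 began 51 bases before the start and overlaps a TATA box (TATAAA) that began 50 bases before it. CACGTG began 15 bases before the start in Clcn7, and 48 and 25 bases before it in Clcn6. Searched on both strands over 250 bases before the start, the MEF2 consensus was present in 2.92% of 32851 RefSeq promoters, TATAAA in 12.4% and CACGTG in 6.02%. Among the remaining starts, a second start of Clcn3 had a MEF2 match 199 bases before it and a second start of Clcn5 had TATAAA 172 bases before it. The start of Clcn2, the first starts of Clcn3 and Clcn5 and the second start of Clcn7 had none of the 3 motifs. A match describes these letters and does not show that a factor binds there.

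Clcn1 was the most variable member, high in control atria, lower in CUG960 atria and lowest in ventricles. Levels are CPM, read counts relative to a library size scaled by TMM, edgeR's trimmed mean of M values. In control atria Clcn1 was at 11.4 CPM in V327, 12.5 in V333 and 11.96 in V334, and in CUG960 atria at 2.58 in V119, 2.05 in V120 and 2.82 in V123. The groups did not overlap, and the lowest control was above the highest CUG960 mouse by more than the whole range within either group. In control ventricles it was at 0.551, 0.731 and 0.705 CPM in the same order of mice, and in CUG960 ventricles at 0.233, 0.130 and 0.272. The ventricular groups did not overlap either, but these levels rest on 61 to 79 reads per control library and 18 to 34 per CUG960 library, against 1740 to 2179 and 319 to 384 reads in atria.

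Clcn1 fell in CUG960 +dox mice in both chambers. A gene was called where it differed at least 1.5-fold at an adjusted P value under 0.05 (quasi-likelihood test of edgeR, adjusted by the Benjamini-Hochberg method over every gene tested). In atria Clcn1 was 4.81-fold lower (log2 fold change −2.27, SE 0.13, adjusted P = 6.2e-05), and in ventricles it was 3.12-fold lower (−1.64, SE 0.33, adjusted P = 0.016). It was the only one of the 6 members called in either chamber, where 5.49% of the 17650 genes tested in atria and 4.75% of the 16909 tested in ventricles were called. Leaving out single mice moved the atrial value only from −2.37 to −2.15 (adjusted P up to 0.0010), and the ventricular value from −1.86 without V123 to −1.39 without V120 (adjusted P up to 0.047). The fall in atria was not shown to differ from that in ventricles, with an interaction of chamber and genotype of −0.62 on the log2 scale (SE 0.29, adjusted P = 0.42 by edgeR).

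Clcn1 was also an atrial transcript. Atria exceeded ventricles 17.97-fold in MHCrtTA +dox mice (log2 fold change 4.17, SE 0.13, adjusted P = 1.8e-07) and 11.6-fold in CUG960 +dox mice (3.54, SE 0.28, adjusted P = 8.0e-06). Even in CUG960 atria, its lowest library was above every ventricular library of either genotype. The chamber comparisons use the same libraries as the genotype comparisons, so they are not independent of them.

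**Figure D1:**
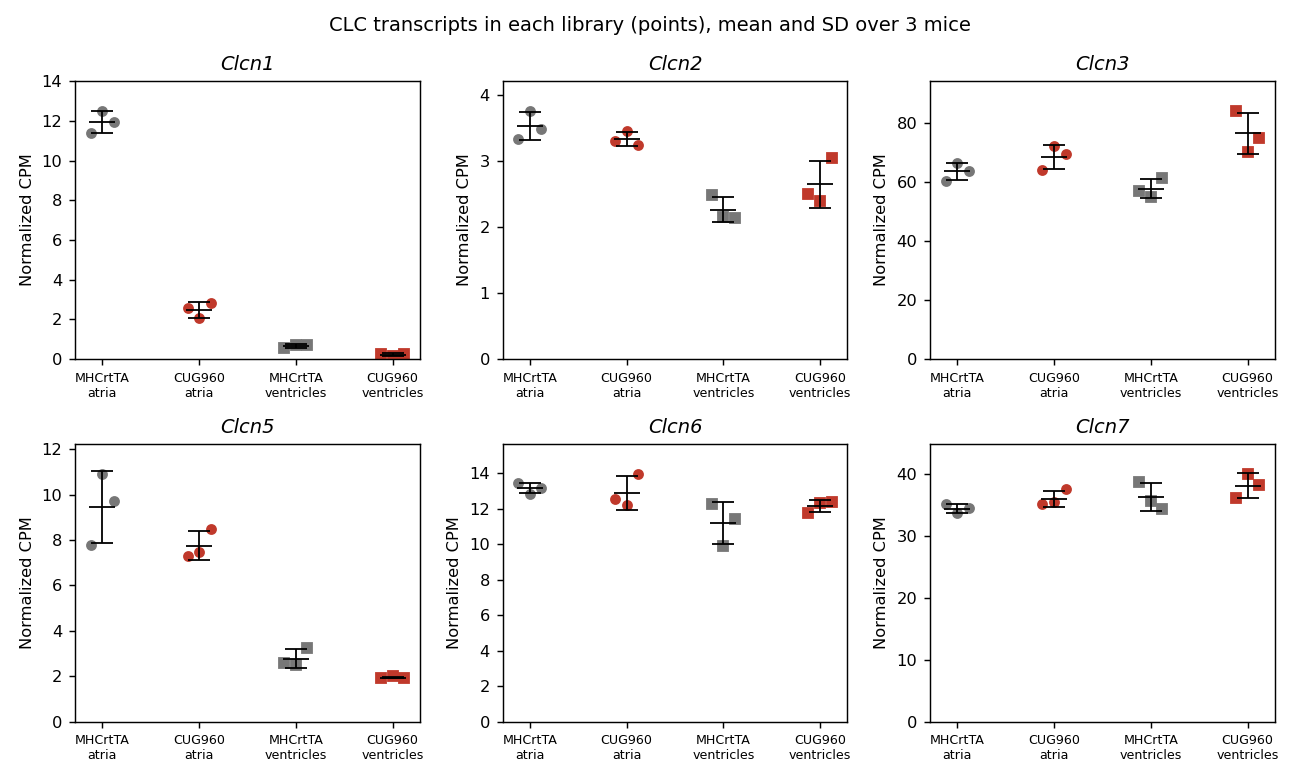
Normalized CPM (vertical axis, from 0) of the 6 members in each of the 12 libraries, with a point per mouse, circles for atria, squares for ventricles, gray for MHCrtTA +dox and red for CUG960 +dox, and bars for the mean and SD of 3 mice. Clcn1 separates all 4 groups, Clcn5 separates atria from ventricles, and Clcn6 and Clcn7 lie close together in all groups.

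Clcn2, the second plasma membrane channel, was higher in atria than in ventricles and was not called between genotypes. Control atria had 3.33, 3.76 and 3.49 CPM in V327, V333 and V334, and control ventricles 2.48, 2.16 and 2.14. CUG960 atria had 3.30, 3.45 and 3.24 CPM in V119, V120 and V123, and CUG960 ventricles 2.50, 2.39 and 3.05. Atria and ventricles did not overlap in either genotype. The atrial excess was called in MHCrtTA +dox mice (1.55-fold, log2 fold change 0.64, SE 0.13, adjusted P = 0.0031), and without V333 it was 0.56, under the 1.5-fold limit. In CUG960 +dox mice it was 0.32 (SE 0.14, adjusted P = 0.076, or 0.035 with all 12 libraries in 1 fit), and V123 had the highest ventricular level. The genotypes overlapped in both chambers, with log2 fold changes of −0.08 in atria (SE 0.11, adjusted P = 0.65) and 0.23 in ventricles (SE 0.16, adjusted P = 0.40).

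Clcn5, the endosomal exchanger known from Dent disease of the kidney, was the other member with a strong chamber difference. Control atria had 7.78, 10.9 and 9.70 CPM in V327, V333 and V334, and control ventricles 2.59, 2.49 and 3.24. CUG960 atria had 7.28, 7.48 and 8.49 CPM in V119, V120 and V123, and CUG960 ventricles 1.93, 1.99 and 1.91. Every atrial library was above every ventricular one. The atrial excess was 3.402-fold in MHCrtTA +dox mice (log2 fold change 1.77, SE 0.16, adjusted P = 3.5e-05) and 3.95-fold in CUG960 +dox mice (1.98, SE 0.11, adjusted P = 1.3e-06). Between genotypes Clcn5 did not pass the test. The groups overlapped in atria (−0.29, SE 0.13, adjusted P = 0.18). In ventricles all 3 CUG960 libraries were below the controls (−0.51, SE 0.15, adjusted P = 0.068), and the adjusted P value was 0.036 by DESeq2 and 0.031 with all 12 libraries in 1 fit, at a difference still under 1.5-fold.

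Clcn3, an exchanger of endosomes and synaptic vesicles, was higher in CUG960 ventricles by less than the fold change limit. Control ventricles had 56.9, 54.8 and 61.2 CPM in V327, V333 and V334, and CUG960 ventricles 84.0, 70.1 and 74.8 in V119, V120 and V123. The groups did not overlap (1.33-fold, log2 fold change 0.41, SE 0.09, adjusted P = 0.020). The adjusted P value rose to 0.068 without V119, 0.054 without V123, 0.078 without V327 and 0.0504 without V333. In atria the values overlapped, with 60.4, 66.3 and 63.6 CPM in controls and 64.0, 71.9 and 69.4 in CUG960 +dox mice (0.11, SE 0.07, adjusted P = 0.31). The interaction of chamber and genotype was −0.30 for Clcn3 (SE 0.11) and did not pass the test (adjusted P = 0.28). The chamber difference was 0.13 in MHCrtTA +dox mice (SE 0.07, adjusted P = 0.13) and −0.17 in CUG960 +dox mice (SE 0.08, adjusted P = 0.12).

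Clcn6 and Clcn7, exchangers of late endosomes and lysosomes, were not called in any comparison. Clcn6 ranged from 9.91 CPM in the ventricles of V333 to 13.98 in the atria of V123. Its group means ± SD were 13.2 ± 0.29 in control atria, 12.9 ± 0.96 in CUG960 atria, 11.2 ± 1.19 in control ventricles and 12.2 ± 0.35 in CUG960 ventricles (n = 3 each). In MHCrtTA +dox mice its atria lay above its ventricles without overlap (0.23, SE 0.09, adjusted P = 0.067). The adjusted P value of this difference was 0.037 with all 12 libraries in 1 fit and 0.043 with upper quartile scaling, under 1.5-fold in both. In CUG960 +dox mice the chambers overlapped. Clcn7, which pairs with Ostm1 in lysosomes and in the ruffled border of osteoclasts, ranged from 33.7 CPM in the atria of V333 to 40.1 in the ventricles of V120. Its log2 fold changes were 0.06 (SE 0.06) and 0.07 (SE 0.08) between genotypes in atria and ventricles, and −0.08 (SE 0.07) and −0.10 (SE 0.07) between chambers in MHCrtTA +dox and CUG960 +dox mice. All of its groups overlapped within these comparisons.

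Counted over the members, 1 of 6 was called between genotypes in each chamber, and it was Clcn1 and lower in CUG960 +dox mice both times. With no fold change limit the count was 1 in atria, where 14.6% of all genes passed, and 2 in ventricles (Clcn1 and Clcn3), where 9.94% passed. Groups without overlap were seen for 1 member in atria, against 35.7% of all genes tested, and for 3 in ventricles (Clcn1, Clcn3 and Clcn5), against 31.2%. The median log2 fold change of the members was −0.06 in atria and 0.10 in ventricles, and −0.01 over all genes in both. Between chambers, 3 of 6 were called in MHCrtTA +dox mice and 2 of 6 in CUG960 +dox mice, all higher in atria, while 34.9% and 33.6% of all genes were called in either direction. The interaction was called for 0 of 6 members by edgeR and by DESeq2 (1 of 6, Clcn3, at an unadjusted P value under 0.05 by edgeR) and for 1.38% of the 18327 genes tested. Clcn1 and Clcn5 thus stood out from the other members by chamber, and Clcn1 by genotype.

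**Figure D2:**
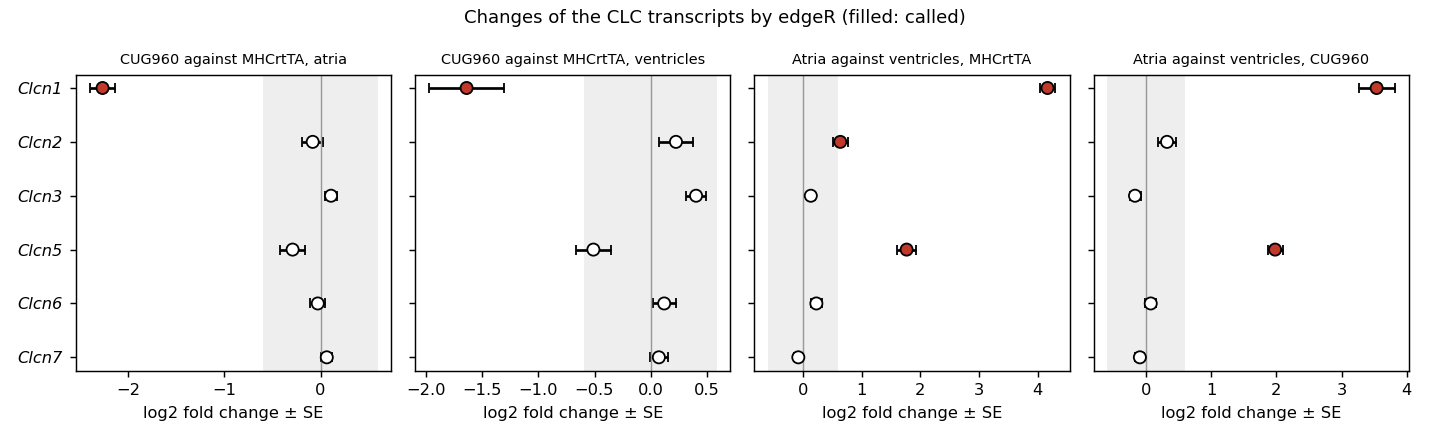
Log2 fold change (horizontal axis) ± SE of the 6 members in the 2 genotype and 2 chamber comparisons, filled where called by edgeR, with the range under 1.5-fold in gray; each panel has its own scale. Clcn1 is at −2.27 and −1.64 between genotypes and at 4.17 and 3.54 between chambers, and Clcn3 and Clcn5 lie within the gray range on opposite sides of 0 in ventricles.

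Levels of different genes were set side by side as CPM per kilobase of annotated exons. In control atria Clcn7 led the members at 6.51 ± 0.13, followed by Clcn3 at 3.72 ± 0.17, Clcn6 at 2.22 ± 0.05, Clcn1 at 2.20 ± 0.10, Clcn5 at 0.827 ± 0.139 and Clcn2 at 0.585 ± 0.036 (SD, n = 3). By this length the ranges of Clcn6 and Clcn1 overlapped, and all other neighbors in the order were apart. In CUG960 atria the first 3 held their places, and Clcn5 at 0.677, Clcn2 at 0.553 and Clcn1 at 0.458 followed, so that Clcn1 was last. In ventricles of both genotypes the order was Clcn7, Clcn3, Clcn6, Clcn2, Clcn5 and Clcn1, with Clcn1 at 0.122 ± 0.018 in controls and 0.0390 ± 0.0135 in CUG960 +dox mice. By this length no ranges of neighbors overlapped in these 3 groups.

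The order depended in part on the length used. With the longest transcript of each gene in place of all exons, Clcn1 was above Clcn6 in control atria (3.37 against 2.53) and Clcn3 above Clcn7 in CUG960 ventricles (9.313 against 9.003, with overlapping ranges). The ranges of Clcn7 and Clcn3, and those of Clcn5 and Clcn2, then also overlapped in atria of both genotypes. Clcn4, an endosomal exchanger of the family outside the 6 members, was above all of them per kilobase, from 10.4 in control ventricles to 14.5 in CUG960 atria. Of the summed level of the 9 CLC genes per kilobase, Clcn1 made up 8.02 ± 0.36% in control atria and 1.57 ± 0.21% in CUG960 atria, and 0.525 ± 0.100% and 0.149 ± 0.049% in ventricles. By either length Clcn1 was the lowest of the 6 members in CUG960 atria and above Clcn5 and Clcn2 in control atria.

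**Figure D3:**
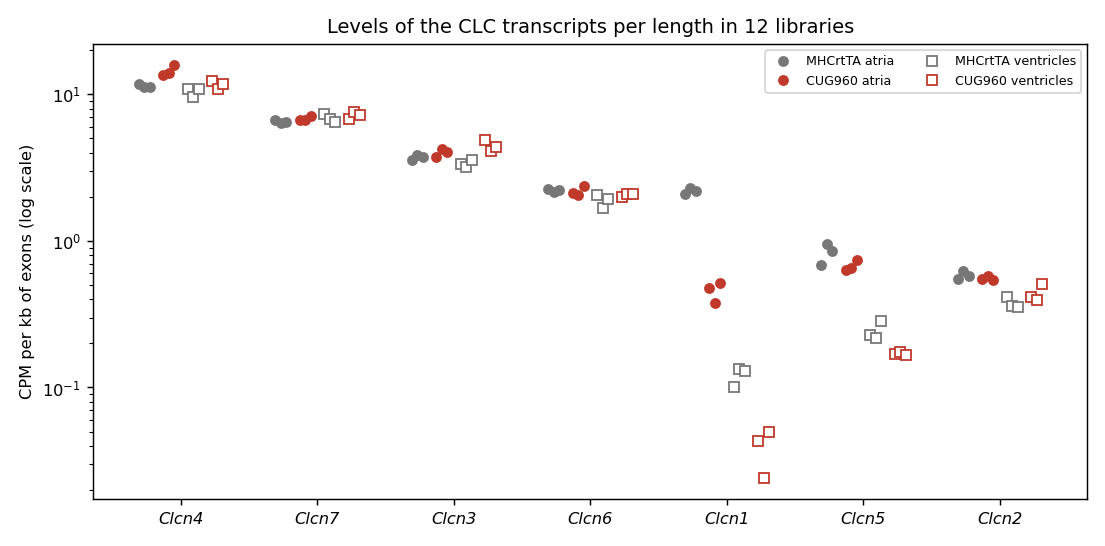
CPM per kilobase of exons (vertical axis, log scale) for Clcn4 and the 6 members in the 12 libraries, circles for atria, open squares for ventricles, gray for MHCrtTA +dox and red for CUG960 +dox. Clcn1 spans from 2.20 in control atria to 0.0390 in CUG960 ventricles on average, while Clcn7 stays between 6.51 and 7.21.

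The other CLC genes and the known partner proteins of the family had no called change between genotypes: 9 of 10 listed symbols were in the table, 5 passed the filter on low counts and 0 were called in either chamber. Of all genes, 5.49% were called in atria and 4.75% in ventricles, so 0 of 5 is near that share. At an adjusted P value under 0.05 with no fold change limit, 3 were higher in CUG960 atria and 0 in ventricles. Clcn4 was at 97.8 ± 2.2 CPM in control and 124.5 ± 10.7 in CUG960 atria (log2 fold change 0.35, adjusted P = 0.016). Tmem9 and Tmem9b, whose products bind CLC exchangers, were at 0.43 (adjusted P = 0.011) and 0.22 (adjusted P = 0.029). The median log2 fold change of the list was 0.35 in atria and 0.16 in ventricles. Between chambers, Tmem9 was called higher in atria in both genotypes (0.70, adjusted P = 0.00069, in MHCrtTA +dox and 0.81, adjusted P = 4.1e-05, in CUG960 +dox mice).

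Genes listed as other chloride channels were taken mostly by family, whatever the activity of each product. The anoctamins, bestrophins, volume-regulated LRRC8 subunits and CLIC proteins were among them. Between genotypes 0 of 22 tested were called in atria and 0 of 21 in ventricles, of 26 in the table, beside 5.49% and 4.75% of all genes. Past the adjusted P value alone were Ano8 (0.42, adjusted P = 0.0069) and Ano6 (−0.44, adjusted P = 0.0019) in atria, and Ano4 (0.55, adjusted P = 0.047) and Lrrc8c (−0.46, adjusted P = 0.044) in ventricles. The median log2 fold change of the list was −0.11 in atria and 0.04 in ventricles. Between chambers, 6 of 23 tested were called higher and 4 lower in atria of MHCrtTA +dox mice, and 6 and 3 of 22 in CUG960 +dox mice, or 43.5% and 40.9% of the list beside 34.9% and 33.6% of all genes.

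Chloride transporters of the SLC12, SLC4 and SLC26 families had 1 called gene of 19 tested in atria and 0 of 17 in ventricles. The atrial share of 5.26% was near the 5.49% of all genes, and in ventricles 4.75% of all genes were called. Slc4a3, a chloride/bicarbonate exchanger of cardiomyocytes, fell in CUG960 atria from 150.7 ± 7.4 to 98.5 ± 3.7 CPM (log2 fold change −0.61, SE 0.06, adjusted P = 0.00085), and in ventricles it was at −0.29 (adjusted P = 0.055). Slc4a1, named after its values were seen because it lay near Clcn1 in the plot of the lists, is the erythrocyte anion exchanger and was not called (−2.29, SE 1.01, adjusted P = 0.17 in atria). Its control atria varied widely, at 0.378 ± 0.466 CPM. The median of the transporter list was −0.14 in atria and −0.13 in ventricles, and 4 were called higher and 4 lower in control atria than in control ventricles, of 18 tested (44.4%, beside 34.9% of all genes).

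Vesicle acidification genes were subunits of the vacuolar proton pump and related regulators that work with the intracellular CLC exchangers. All were under the call limits between genotypes (0 of 31 tested in atria and 0 of 32 in ventricles, of 36 in the table), beside 5.49% and 4.75% of all genes. Without the fold change limit 0 were higher and 3 lower in atria, and 1 higher and 1 lower in ventricles. The median log2 fold change was −0.02 in atria and −0.04 in ventricles. Between chambers, 3 of 31 were called higher and 4 lower in atria of controls, and 2 and 3 of 32 in CUG960 +dox mice, or 22.6% and 15.6% of the list beside 34.9% and 33.6% of all genes. Counts of list genes at an adjusted P value alone compare with 14.6% and 9.94% of all genes.

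**Figure D4:**
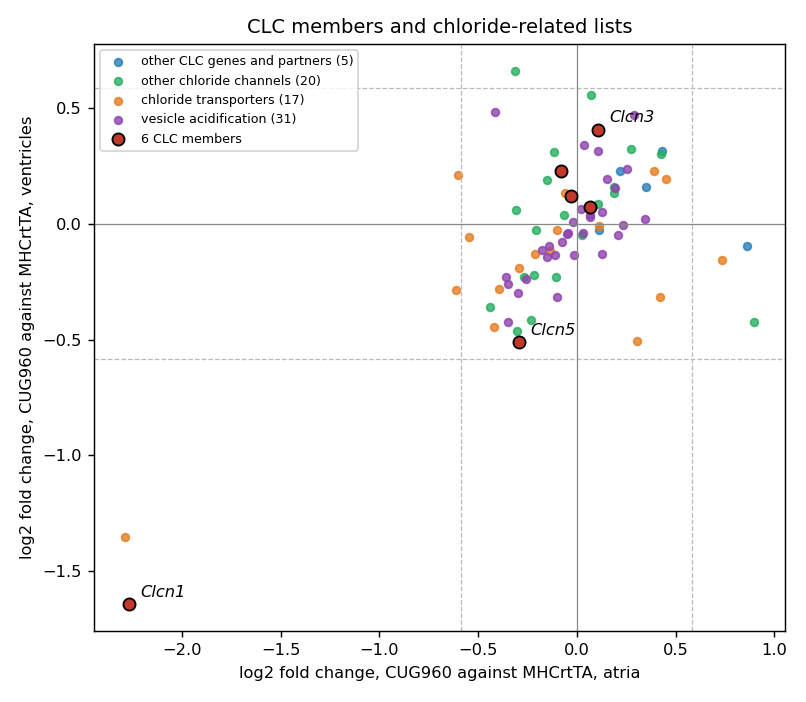
Log2 fold change of CUG960 against MHCrtTA in atria (horizontal axis) and ventricles (vertical axis) for the 6 members (red) and the genes of the 4 lists tested in both chambers (5, 20, 17 and 31 genes), with dashed lines at 1.5-fold. Clcn1 is at −2.27 and −1.64, the transporter gene nearest to it is Slc4a1 at −2.29 and −1.35, which was not called, and the remaining members lie within the dashed lines.

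Genes around the members were read for signs that reads of a neighbor could enter a member's count; whether the counting used strand is not stated. Fam131b, on the opposite strand, overlaps the last 445 bases of Clcn1 and was at 1.24 CPM in control atria and 1.06 in CUG960 atria, and at 0.634 and 0.640 in ventricles. It was not called between genotypes (−0.23, adjusted P = 0.38 in atria). Casp2, which ends 4176 bases before Clcn1, and Zyx, which begins 33873 bases after it, had log2 fold changes of −0.06 (adjusted P = 0.65) and −0.19 (adjusted P = 0.38) in atria. None of these 3 genes around Clcn1 was called between genotypes in either chamber.

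The neighbors of the other members moved more. Nppa, which encodes atrial natriuretic peptide, lies 2179 bases from Clcn6 on the opposite strand and was at 15890 CPM in control atria and 11870 in CUG960 atria (−0.42, adjusted P = 0.0083), and rose in CUG960 ventricles from 62.6 to 154.1 CPM (1.301, adjusted P = 0.031). On either side of Clcn3, Nek1 fell in atria (−0.91, adjusted P = 0.00036) and ventricles (−0.71, adjusted P = 0.0042), and Hpf1 rose in atria (0.59, adjusted P = 0.0057). Ptx4, next to Clcn7, fell in atria (−1.13, adjusted P = 0.020) at 0.350 CPM in controls, and Ccdc154 on the other side had at most a trace. Clcn2 overlaps Fam131a by 85 bases and Polr2h by 82 bases, both on the opposite strand and neither called between genotypes (adjusted P = 0.10 and 0.071 in atria). Eif4g1 and Thpo, the next genes around Clcn2, and Usp27x and Akap4 around Clcn5 were not called between genotypes, the small RNA genes within Clcn5 were listed at 0, and Gm13207, a pseudogene within Clcn6, had only traces.

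Markers of other cells were set beside these values, since Clcn1 is best known from skeletal muscle. The cardiomyocyte list, led by Myh6, summed to between 39200 and 59780 CPM in every library. Between genotypes 1 of its 7 genes was called, Ryr2, the calcium release channel, lower in CUG960 ventricles (−0.67, adjusted P = 0.015, and −0.53, adjusted P = 0.030, in atria). Of all genes, 4.75% were called in ventricles and 5.49% in atria. The atrial and ventricular lists were high in the chambers the labels name. Of the defining skeletal markers, Myh4 had 0 to 6 reads, Myh1 0 to 14, Pvalb 0 to 62 and Myod1 0 to 40 in the 12 libraries. Myod1 was at 40, 29 and 19 reads in CUG960 ventricles of V119, V120 and V123 and at most at 4 in every other library, and it and Pvalb were called higher in CUG960 ventricles (adjusted P = 0.016 and 0.012). Actn3 had 77 to 161 reads in atria and 1 to 7 in ventricles, and was not called between genotypes in atria (−0.27, adjusted P = 0.45). The whole list of 22 genes summed to 670 to 715 CPM in atria and 1219 to 1415 in ventricles, most of it Pygm, muscle glycogen phosphorylase, at 581 to 640 and 1070 to 1190 CPM. Gene by gene, 7 of 16 tested were called higher and 7 lower in control atria than in control ventricles (median log2 fold change −0.54). In CUG960 +dox mice 5 of 19 were higher and 10 lower in atria (median −0.83). Of all genes, 34.9% and 33.6% were called between chambers in controls and CUG960 +dox mice, so a larger share of this list was called, in both directions.

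Between genotypes the skeletal list had calls in both directions. In atria 1 of 14 tested was called higher and 3 lower, where 5.49% of all genes were called, and in ventricles 5 of 17 higher and 1 lower, where 4.75% were called. Of those named after their values were seen, Tnnt3 and Tnni2, both fast skeletal troponins, had the directions of Clcn1. Tnnt3 fell in CUG960 atria (−2.06, adjusted P = 0.010) and was higher in control atria than in control ventricles (1.94, adjusted P = 0.00070). Tnni2 likewise fell in CUG960 atria (−1.34, adjusted P = 0.027) and was higher in control atria (1.31, adjusted P = 0.0023). Neither was called between genotypes in ventricles (−1.09, adjusted P = 0.15, and −0.98, adjusted P = 0.13), and both were under 1 CPM in every library. Tnnc2, another fast skeletal troponin of the list and also named after its values were seen, did not share these directions. It was called lower in atria in controls (−3.27, adjusted P = 0.0012) and in CUG960 +dox mice (−3.52, adjusted P = 0.0013). Between genotypes it was at −0.07 in ventricles (adjusted P = 0.93) and was not tested in atria, with 0 to 20 reads per library. Mybpc2 fell in both chambers (−2.01, adjusted P = 0.00070, and −2.24, adjusted P = 4.0e-05) but was lower in atria than in ventricles (−2.12 in controls). Myh8, a perinatal myosin, rose in both chambers (2.17, adjusted P = 0.00017, and 4.11, adjusted P = 0.0035), and Tnni1 and Tnnt1 rose in ventricles (1.63 and 0.64, adjusted P = 0.017 and 0.013). Pygm was not called between genotypes (0.03 in atria and −0.07 in ventricles).

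Of the atrial list, led by Nppa, 0 of 6 genes were called between genotypes in atria. There the list summed to 27050 to 29830 CPM in controls and to 22560 to 24680 in CUG960 +dox mice, without overlap. In ventricles it summed to 87.0, 81.9 and 166.6 in controls and to 95.8, 237.3 and 329.7 in V119, V120 and V123. Between genotypes in ventricles 1 of its 6 genes was called higher, Nppa, and 1 lower, Bmp10, a secreted factor of atrial cardiomyocytes that was at 2.39 to 3.75 CPM in controls and 0.0343 to 0.275 in CUG960 +dox mice (−4.06, adjusted P = 0.0016). Bmp10 thus fell in ventricles as Clcn1 did, and in atria it was not called (0.03, adjusted P = 0.95). Bmp10, Myl7, Myl4, Sln, Dkk3 and Ryr2 were named after their values were seen. Myl7 was at 55.9 CPM in the ventricles of V123 against 0.192 and 0.304 in the other CUG960 ventricles and 4.98 to 19.3 in controls. Among CUG960 ventricles Myl4, Sln and Dkk3 were also highest in V123, which had the highest Clcn1. The list was not uniform: Nppa (86.6, 224 and 151 CPM in V119, V120 and V123) and Bmp10 (0.0343, 0.275 and 0.208) were highest in V120, which had the lowest Clcn1 (0.130). Without V123 the ventricular log2 fold change of Clcn1 was −1.86. The endothelial list, led by Pecam1, had 1 of 6 genes called lower in atria and 0 of 6 in ventricles, and summed to 554 to 664 CPM in control atria and 442 to 498 in CUG960 atria, and to 714 to 855 and 570 to 616 in ventricles. Pecam1 fell in atria (−0.71, adjusted P = 0.0043) and was at −0.53 in ventricles (adjusted P = 0.0018). Fibroblast markers, led by Dcn, and macrophage markers, led by Lyz2, had 0 called between genotypes in either chamber (0 of 7 each), and ventricular markers, led by Myl2, had 1 lower of 5 in atria. Of all genes, 5.49% were called between genotypes in atria and 4.75% in ventricles, and in lists this short a single call or none says little. The part of these markers in the Clcn1 result was not tested.

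The 5 genes whose pattern was most like that of Clcn1 over the 12 libraries were Pdzrn4, Rp1, Cntf, Kcnc2 and Lad1, by the root mean square difference of log2 CPM centered on each gene's mean. The difference was 0.743 for Pdzrn4, 0.760 for Rp1, 0.793 for Cntf, 0.796 for Kcnc2 and 0.798 for Lad1, against a median of 2.21 over the 13083 genes compared, and the 28 genes with 0 reads in a library were left out. Rank was not by test: Pdzrn4 was at −0.62 in atria (adjusted P = 0.0036) and −1.03 in ventricles (adjusted P = 0.081), and Kcnc2 passed in neither chamber (−0.67, adjusted P = 0.065, and −0.60, adjusted P = 0.23). As a description of shape only, the libraries share chamber and genotype, so any gene higher in atria and lower in CUG960 +dox mice scores well. Cntf, a neurotrophic cytokine, was at 17.9 ± 2.7 and 5.05 ± 1.23 CPM in control and CUG960 atria and at 0.513 ± 0.092 and 0.529 ± 0.150 in ventricles, so it shared the atrial fall (−1.82) and was at 0.04 in ventricles. Lad1 fell in both chambers (−1.19, adjusted P = 0.00052, and −1.43, adjusted P = 0.0036), as did Rp1 (−1.10, adjusted P = 0.00081, and −3.09, adjusted P = 1.4e-05). Among the members Clcn5 came nearest, at rank 250 with a difference of 1.33, and Clcn3 was farthest, at 2.27.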

How the data were processed

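The authors aligned paired-end reads of poly(A)-selected, stranded libraries to GRCm38, estimated gene counts with RSEM 1.3.1, and deposited these expected counts as 1 table of 12 columns, whole numbers without scaling or filter. Whether RSEM was given a strand setting is not stated in the sources used here. Each comparison was fitted over all genes with edgeR 4.0.16 in R 4.3.3 (filterByExpr, TMM, quasi-likelihood test, Benjamini-Hochberg adjustment). CPM are over TMM library sizes of all 12 libraries, and fold changes are from the fit of the libraries compared. Per-length levels divide CPM by the union of GENCODE M21 exons. Replicates are separate mice. The labels give each mouse's atria and ventricles 1 number, and their deviations from the group means correlated at r between 0.047 and 0.284. The steps were tested on simulated data. The members, lists and tests were chosen with earlier results of these data known.

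Named genes were all members, their nearest protein-coding and overlapping genes, list genes called by genotype, leading and defining markers, and the 5 genes most like Clcn1 with a mean of at least 1 CPM. List genes past the adjusted P value alone, and those said so in the text, were named after their values were seen. Some genes that these rules chose are not reported here. Alternatives were DESeq2 1.42.0, RLE and upper quartile scaling, no filter, a minimum of 10 counts per library, 1 fit of all 12 libraries, other fold limits, the mouse as a block, each mouse left out, the longest transcript as length and RLE for levels. Figures were drawn with matplotlib 3.10.9.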

Additional observations from a re-analysis of the deposited data

How the results depend on the processing

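Clcn1 was called by genotype in both chambers and by chamber in both genotypes under every alternative run. The counts of all genes called changed most with the fold limit: with none they were 2573 in atria, 1680 in ventricles, 9726 between chambers in MHCrtTA +dox and 9517 in CUG960 +dox mice, and at an absolute log2 fold change of 1.5 they were 216, 199, 2233 and 2200. With no limit 2 members passed in ventricles. For the interaction 253 genes were called by edgeR and 642 by DESeq2, and between 74 (without V333) and 131 (without V334) with a mouse left out, where the fit has fewer samples. With the mouse as a replicate block the interaction gave 0 members, and the chamber comparisons gave 6113 and 5899 genes with 3 and 2 members, so pairing changed no call of a member. With a mouse left out, the log2 fold change of Clcn6 in atria ranged from −0.0954 (without V123) to 0.0111 (without V120, reversed), and the interaction of Clcn7 from −0.0441 (without V327) to 0.041 (without V120, reversed, as it was at 0.0259 without V334). Neither passed the threshold, and the cause was not tested. Scaling by spike-in rows was not run, since the table used here lists none. Ventricular Clcn1 rests on few reads, which limits its precision.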
